A study of Mus musculus with 2 samples.

Results

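The cells described here are 249 sph/sph liver endothelial barcodes chosen by their raw UMI counts (unique molecular identifiers, each a counted transcript molecule), above all by a high count of Vwf, the gene of von Willebrand factor. They were 249 of the 12911 kept endothelial barcodes of the sph/sph library and of 25026 in both libraries of the series. Kept barcodes had 500 or more detected genes, 1000 or more UMIs and no more than 15% mitochondrial UMIs, and a barcode counted as endothelial with at least 1 UMI of Pecam1 or Cdh5, the endothelial junction proteins CD31 and VE-cadherin. The rule then asked for at least 5 Vwf UMIs, at most 2 UMIs of Rspo3 (an R-spondin that marks endothelium of the central vein), at most 2 summed over Sema3g, Hey1 and Gja5 (a semaphorin, a Notch target and a connexin of arterial endothelium), at most 4 of Lyve1 (the hyaluronan receptor LYVE-1, known from sinusoids and lymphatics) and at most 2 summed over the cell division genes Mki67, Top2a, Cenpf and Birc5. Vwf lies on chromosome 6 of GRCm38 at positions 125546774 to 125686679 on the forward strand. The working label of the group was venous endothelium marked by Vwf, Gata4 and Cd34. The levels went only partly with that label, so the group is called Vwf-high cells here.

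Liver endothelium was sorted from 2 adult mice of C57BL/6 background, 1 carrying the sphinx allele of Gimap5 on 1 chromosome (sph/+) and 1 on both (sph/sph), as cells negative for the dead-cell dye DAPI and for the leukocyte marker CD45 and positive for CD31. The product of Gimap5 is an immunity-associated GTPase, the sphinx allele is a missense mutation, and both mice carried at least 1 mutant allele. Each mouse gave 1 library made with the 10x Genomics 3' v3 kit. With 1 mouse for each genotype there was no test between them, library and genotype cannot be told apart, and all intervals are exact 95% intervals that cover counting error only.

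Von Willebrand factor is a large glycoprotein that endothelial cells store in Weibel-Palade bodies together with P-selectin, and it tethers platelets to injured vessel walls. In the liver its expression is known from the endothelium of portal and central veins and of arteries, whereas the sinusoidal endothelium, whose cells are fenestrated and clear material from blood, carries little of it. GATA4 is the transcription factor known for setting the sinusoidal program, CD34 is a sialomucin of continuous capillaries, and COUP-TFII, encoded by Nr2f2, is the transcription factor known for vein identity.

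In the sph/sph library 1887 of the kept endothelial barcodes held any Vwf UMI, and 683 held at least 5. Of those 683, 295 were over the limit for the 3 arterial genes, 118 were over the Rspo3 limit, 30 were over the Lyve1 limit and 32 were over the cell division limit, where a barcode could be over several. Gja5 alone was over 2 UMIs in 189 of the 295, Sema3g in 80 and Hey1 in 67. The arterial limit therefore took out more Vwf-positive barcodes than the rule kept. Vwf itself had a lowest value of 5 UMIs, a median of 8 and a highest of 48 in the members, a summed level of 2265 CPM (2184 to 2349) (CPM, UMIs scaled to a common total, with the interval in brackets). The members held between 1009 and 15916 UMIs with a median of 4667, and 1300835 UMIs in all. Of the barcodes that met every other limit, 8333 had no Vwf UMI, 474 had 1, 173 had 2, 87 had 3, 57 had 4, 39 had 5 and 34 had 6. There was no gap at the limit of 5.

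The barcodes on either side of the limit differed by degree. The 73 members with 5 or 6 Vwf UMIs held a median of 4023 UMIs, and the 144 barcodes just outside, with 3 or 4, held 3977. Nr2f2 was at 355 CPM just inside and 150.2 CPM just outside. Gata4 was at 143 and 107 CPM, Selp (P-selectin) at 72.8 and 29.7 CPM, and Mgp (matrix Gla protein, an inhibitor of calcification) at 69.9 and 34.7 CPM. These values describe the barcodes the limit parts.

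In the sph/+ library 108 of 12115 kept endothelial barcodes met the same rule, a share of 0.891% (0.732 to 1.08), against 1.93% (1.70 to 2.18) in sph/sph. When every barcode with at least 2000 UMIs was thinned to 2000, the shares were 0.320% (36 of 11252) and 1.64% (191 of 11660). The sph/+ cells were deeper, with a median of 5505.5 UMIs, and held Vwf at a lowest of 5, a median of 7 and a highest of 20 UMIs. In sph/sph 40 members held 20 UMIs or more. At least 10 Vwf UMIs were found in 94 sph/sph and 22 sph/+ barcodes that met the other limits, or 0.728% and 0.182%. The libraries had 30 barcode sequences in common, 22 of them kept, and 2 members had a barcode that also occurs in sph/+, where neither met the rule.

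The doublet caller's automatic threshold marked no barcode in either library and so did not work. Taking the highest scores at the expected rate marked 53 of the 249 members (21.3%) against 13.3% of the 11024 Vwf-negative barcodes. Without the marked barcodes the shares were 1.76% in sph/sph and 0.852% in sph/+. In the members 5.92% of UMIs came from mitochondrially encoded genes and 10.5% from ribosomal protein genes, close to the 5.55% and 10.6% of the Vwf-negative barcodes.

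Of the 3 label genes besides the rule, Gata4 and Cd34 pointed in different directions. Gata4 had a lowest value of 0, a median of 0 and a highest of 6 UMIs, with at least 1 UMI in 105 of 249 members, or 42.2% (36 to 48.6). The members were first compared with the 11024 kept endothelial sph/sph barcodes without a Vwf UMI, the Vwf-negative cells. Gata4 was at 178 CPM (156 to 203) in the members and 16.1 CPM (15 to 17.2) in those, where it was detected in 5.03%. Cd34 was lower in the members, at 507 CPM (469 to 548) against 709 CPM (702 to 716), and was detected in 75.1% against 88%. Cd34 had a median of 2 UMIs and a highest of 18 in the members. Thinned to 2000 UMIs, which left out 14 members and 875 Vwf-negative barcodes, the shares were 22.1% and 2.49% for Gata4 and 54.5% and 73.6% for Cd34. Beside these, 99 sph/sph barcodes with at least 5% of UMIs from hepatocyte genes and no Pecam1 or Cdh5 UMI were counted. They held Vwf in 0, Gata4 in 0, Cd34 in 2 and Nr2f2 in 2, at a median of 1529 UMIs against the members' 4667. Taken as 3 counts of 99, a count of 0 allows up to 3.03% of such barcodes to hold a UMI at that depth. Choosing barcodes without Pecam1 or Cdh5 also selects against free endothelial RNA, so these counts cannot limit that background.

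Venous genes were higher on balance, but not in every member. Nr2f2 had a lowest value of 0, a median of 1 and a highest of 23 UMIs, was detected in 58.6% (52.2 to 64.8) of members against 19.8% of Vwf-negative cells, and was at 372 CPM (339.7 to 407) against 142 CPM (139 to 145). Selp was at 116 CPM (98.3 to 136) against 30.3 CPM, with a median of 0 and a highest of 5 UMIs. Ephb4, the receptor of veins for ephrin-B2, was at 141 CPM against 141 CPM, and Ackr1, an atypical chemokine receptor of venules, at 3.84 CPM with 5 UMIs in all. Nr2f2 and Selp were therefore higher than in Vwf-negative cells, Ephb4 was within overlapping intervals, and Ackr1 was near its limit of detection. Of the 22 measured venous genes outside the rule, 11 were at least 2-fold higher and 2 at least 2-fold lower, with a median log2 ratio of 1.06. Among all 7167 measured genes 4.87% were at least 2-fold higher and 3.73% lower, with a median of -0.01, where measured means at least 20 CPM in either set and 1 CPM was added to both before the ratio. The other venous genes that were higher included Plvap, the protein of endothelial diaphragms (815 against 191 CPM), Lrg1, a secreted leucine-rich glycoprotein (353 against 92.4 CPM), and Slco2a1, the prostaglandin transporter (520.4 against 159 CPM).

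The members were spread over several clusters. When the sph/sph library was clustered without the genes of the rule, they fell into 13 clusters, and 4 clusters held at least 20 members each. Cluster 11 held 120 members (48.2%) and was led by Vwf, Gja5, Nepn and Sost. Cluster 5 held 47 (18.9%) and was led by Igfbp3, Cxcl12 and Abcc9, cluster 7 held 29 (11.6%) and was led by Sprr2b, Clec4g and Adam23, and cluster 19 held 22 (8.84%) and was led by Mgp, Fbln5 and Vwf. The remaining 31 members were spread over 9 clusters, among them 4 in a cluster led by haemoglobin genes and 2 in one led by Alb. Members made up 22 of the 36 barcodes of cluster 19 (61.1%) and were a minority of the other 3 clusters. Cluster 11 also held 175 of the 278 Vwf-high barcodes that missed only the arterial limit, cluster 5 held 75, cluster 19 held 13 and cluster 7 held 2. The limit on Gja5, Sema3g and Hey1 thus passed through these clusters. Apart from genes of the rule, the genes that lead a cluster took part in forming it, so the levels below are a description.

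Of the 4 clusters, Gata4 and Nr2f2 had their highest summed levels in the members of cluster 11, though for Gata4 the interval overlapped that of cluster 7. Gata4 was at 277 CPM (239 to 321) in cluster 11, 194 CPM (129 to 281) in cluster 7, 28.9 CPM in cluster 19 and 4.64 CPM in cluster 5, where 1 UMI was counted in 47 members. Nr2f2 followed the same order, at 532, 313, 222 and 4.64 CPM. Sost, which encodes sclerostin, a secreted Wnt antagonist best known from bone, was at 262 CPM in cluster 11, 13.9 in cluster 7, 9.63 in cluster 19 and 4.64 in cluster 5. Nepn (nephrocan, a leucine-rich proteoglycan) was at 185 CPM in cluster 11 and 0 in cluster 5. Cst3, the secreted protease inhibitor cystatin C, was at 2806 CPM in cluster 11 and 343 in cluster 5, and Glul, glutamine synthetase, at 934 and 88.2 CPM.

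The 22 members in cluster 19 carried the matrix genes. Mgp was at 3458 CPM (3109.6 to 3835) there, 121 CPM in cluster 11, 9.28 in cluster 5 and 0 in cluster 7. Fbln5 (fibulin-5, which organises elastic fibres) was at 2649, 288, 111 and 34.7 CPM in the same order. Eln, the gene of elastin itself, was at 1763, 188, 13.9 and 76.4 CPM. Cluster 19 had the highest level of each of the 3, with intervals apart from those of the other clusters. Plvap was also highest there, at 2639 CPM against 1087 in cluster 11 and 13.9 in cluster 5. Bgn (biglycan, a proteoglycan of vessel walls) was at 2032 CPM in cluster 19 and 481 in cluster 11, and Procr, the endothelial protein C receptor, at 529.8 and 48.5 CPM. Of the sinusoidal genes, Stab2, a scavenger receptor for hyaluronan, and Clec4g, a C-type lectin, had 0 UMIs in cluster 19, and Maf, a transcription factor of sinusoidal endothelium, was at 9.63 CPM. Stab1 (stabilin 1) was found in all 4 clusters, at 588 CPM in cluster 19 and 235 CPM in cluster 11.

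The 47 members in cluster 5 carried little Gata4 or Nr2f2, as given above. Plvap was at 13.9 CPM there, Ehd3 (an endocytic recycling protein of sinusoidal endothelium) at 18.6 CPM, and Stab2 and Clec4g had 0 UMIs. They carried Cxcl12, the chemokine CXCL12, at 2460.1 CPM (2255 to 2679) against 25.8 CPM in cluster 11, Unc5b, a netrin receptor, at 696 against 31.8 CPM, and Sparcl1, a secreted matrix protein, at 2850.0 against 156 CPM. Vwf in these members ran from 5 to 13 UMIs with a median of 7, against a median of 10 in cluster 11 and 28.5 in cluster 19. The 29 members in cluster 7, with a median of 7 Vwf UMIs, had the sinusoidal genes: Ehd3 at 1569.8 CPM, Clec4g at 604 CPM, Stab2 at 278 CPM and Maf at 472 CPM. The doublet score marked 8 of those 29 (27.6%) and 30 of 120 in cluster 11 (25%), against 8 of 47 in cluster 5 and 2 of 22 in cluster 19. Their part in these levels was not tested.

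**Figure D1:**
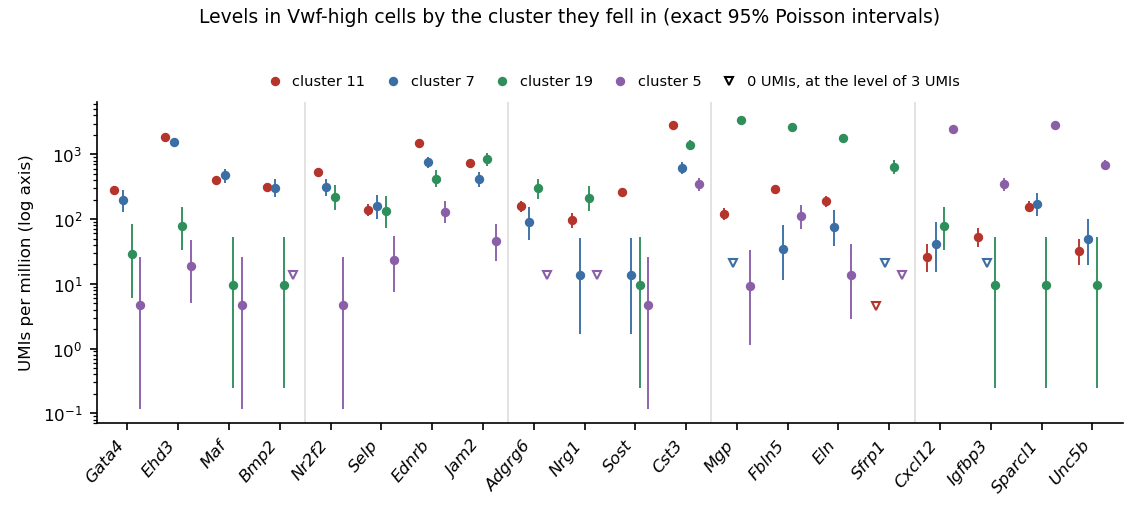
Summed level (CPM, log axis) of 20 genes in the members of clusters 11, 7, 19 and 5 of the sph/sph library, with exact 95% Poisson intervals, and open triangles for genes with 0 UMIs drawn at the level of 3 UMIs. Gata4, Ehd3 and Maf are high in clusters 11 and 7, Mgp, Fbln5 and Eln in cluster 19, and Cxcl12, Sparcl1 and Unc5b in cluster 5.

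The members were also divided by their Vwf UMIs, a value the rule used, so the levels are a description. Of the 249, 155 held 5 to 9 Vwf UMIs, 54 held 10 to 19 and 40 held 20 to 48, with median depths of 4292, 5015 and 5501 UMIs. Mgp was at 77.5, 282 and 1204 CPM over these 3 ranges, Fbln5 at 131, 406 and 1132 CPM, and Eln at 101, 209.8 and 811 CPM. Nrg1 (neuregulin 1, a ligand of ErbB receptors) was at 13.1, 75.7 and 221 CPM and Plvap at 403, 1152 and 1677 CPM. Each of the 5 was higher in every step of Vwf. The opposite order was found for Cxcl12, at 743, 265 and 64.2 CPM, for Tnfrsf9, the costimulatory receptor 4-1BB, at 405, 89.4 and 48.1 CPM, and for Col4a1, a chain of basement membrane collagen, at 2349, 1289.8 and 558 CPM. Gata4 was highest in the middle range, at 159, 234 and 173 CPM, and Ehd3 was at 1057, 1499.6 and 1079 CPM. The ranges also differed in their clusters. Vwf ran from 5 to 13 UMIs in the members of cluster 5, where Cxcl12 was high. It had a median of 28.5 in those of cluster 19, where Mgp, Fbln5, Eln and Plvap were highest. The steps therefore need not hold within a cluster, which was not tested. The genes in these 3 ranges were picked after their values were seen.

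**Figure D2:**
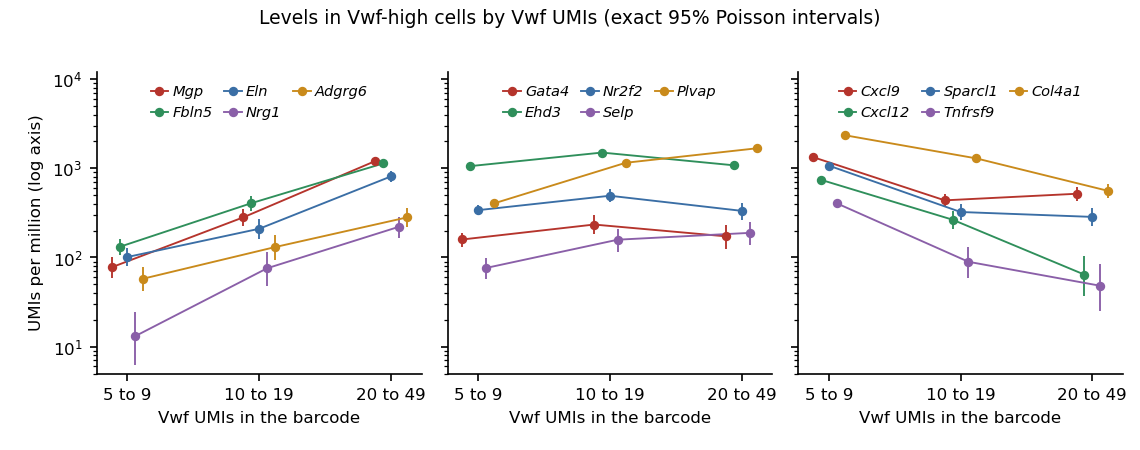
Summed level (CPM, log axis, exact 95% Poisson intervals) of 15 genes in members with 5 to 9 (155 cells), 10 to 19 (54) and 20 to 49 (40) Vwf UMIs. Mgp, Fbln5, Eln and Nrg1 are higher at each step, while Cxcl12 and Tnfrsf9 are lower at each step.

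Detection was also compared in single members. After thinning to 2000 UMIs, 235 members remained, 34 with an Mgp UMI. Fbln5 was detected in 30 of those 34 (88.2%, 72.5 to 96.7) and in 35 of the 201 others (17.4%, 12.4 to 23.4). Gata4 was detected in 2 of the 34 (5.88%, 0.72 to 19.7) and in 50 of the 201 (24.9%, 19.1 to 31.4), intervals that overlap. Ehd3 was detected in 10 of the 34 (29.4%, 15.1 to 47.5) and 113 of the 201 (56.2%, 49.1 to 63.2), intervals apart. Ehd3 was found in 39 of 52 members with a Gata4 UMI (75%, 61.1 to 86.0) and in 84 of 183 without (45.9%, 38.5 to 53.4). Gata6, the related factor of other endothelium, was found in 0 of the 52 Gata4-positive members and 3 of the 183 others. Cd34 was found in 25 of the 52 and in 103 of the 183, and Adgrg6 in 10 and 23, intervals that overlap for both.

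The genes whose counts varied most between members were Malat1, a nuclear non-coding RNA, with a variance 30 times its mean at 2000 UMIs, Cst3 (18.3), Fabp4, a fatty acid carrier (11.2), the interferon-induced chemokine Cxcl9 (10.1) and the surface antigen Ly6a (9.8). The median ratio of the 1752 genes compared was 1.11. Before thinning, Cst3 ran from 0 to 280 UMIs with a median of 4, and Cxcl9 from 0 to 134 with a median of 0. Cxcl10, Sparc, Sprr2b, Cxcl12, Mgp, Igfbp5 and Igfbp7 followed. Sprr2b, a cornified envelope protein gene that leads cluster 7, reached 142 UMIs in a member and was detected in 40 of the 235. Cxcl9 was found in 87 of the 235 and Cxcl10, another ligand of CXCR3, in 45.

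Against Vwf-negative cells of the same library, the members held 349 of 7167 measured genes at a level 2-fold or more above, 267 at one 2-fold or more below and 5812 within 1.5-fold. The highest ratio was that of Adgrg6, an adhesion G protein-coupled receptor, at 117 CPM (99 to 137) against 0.961 CPM (0.715 to 1.26), a log2 ratio of 5.91. Adgrg6 had a lowest value of 0, a median of 0 and a highest of 9 UMIs and was detected in 28.5% of members and 0.381% of Vwf-negative cells. Nrg1 was at 66.9 against 0.17 CPM (5.86) and detected in 18.5% of members. Most members therefore showed no UMI of either gene. Among secreted Wnt antagonists, Sfrp1 was at 50.7 against 0.396 CPM (5.21) and Sost at 137 against 3.11 CPM (5.07), with Sost found in 31.7% of members and 0.871% of Vwf-negative cells. Further secreted and matrix genes among the 20 highest were Spon1 (F-spondin, 5.34), Col8a1 (a short-chain collagen, 4.94), Nepn (4.57), Mgp (4.28), Htra1 (a secreted serine protease, 4.22) and Fbln5 (4.0). Mgp was at 339 CPM (308 to 372) against 16.5 CPM, with a median of 0 and a highest of 38 UMIs, so few cells carried most of it. Fbln5 was at 384 CPM (351 to 419.6) against 23 CPM, with a median of 0 and a highest of 34 UMIs. The rest of the 20 highest ratios were those of Fjx1, Msr1 (the class A scavenger receptor), Cnmd (chondromodulin), Ptprj (a receptor tyrosine phosphatase), Kank4, Cd84, Bmper (a BMP-binding protein), Samd5, Arhgap44 and Cdh4 (R-cadherin), all with log2 ratios between 4.04 and 4.99.

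Of the large-vessel and elastic matrix list, 12 of 21 measured genes were at least 2-fold higher and 2 lower, with a median log2 ratio of 1.73. Bgn was at 514 CPM (476 to 555) against 40.5 CPM, Eln at 261 against 34.7 CPM, and Clu (clusterin, a secreted chaperone) at 445 against 35.8 CPM. Dcn (decorin), a gene of fibroblasts as well, was 135-fold (46.1 to 653) lower, with 3 UMIs in the members. These genes were unevenly spread, as the 22 members in cluster 19 had 8.84% of the cells and the highest Mgp, Fbln5 and Eln. Of the basement membrane list 1 of 17 was higher and 3 lower, with a median of -0.41. The higher gene was Lama3, a laminin chain (2.3 on the log2 scale), and the lower ones were Fn1 (fibronectin, -3.84), Col15a1 (-1.91) and Nid2 (nidogen 2, -1.19). In the 8333 Vwf-negative cells that met the other limits Fn1 was at 26.2 CPM, which brought its ratio under 2-fold (-0.95). The ratio of Nid2 was -0.76 with at least 3 Vwf UMIs.

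Genes of coagulation and of Weibel-Palade body cargo divided by gene. Of the haemostasis list outside Vwf, 4 of 16 were higher and 4 lower, with a median of -0.15 whose sign changed between settings (-0.18 to 0.26). Thbd (thrombomodulin, the cofactor of protein C activation) was at 607 CPM (565 to 650.4) against 163 CPM, and Plat, tissue plasminogen activator, at 241 against 117 CPM. F8, coagulation factor VIII, which von Willebrand factor carries in plasma, was at 131 CPM (112 to 153) against 146 CPM (143 to 149.8), intervals that overlap. Serpine2, a protease inhibitor, was 21.4-fold (5.91 to 177) lower, with 2 UMIs in the members. Prss23, a serine protease, was at 80.7 against 452 CPM and Mmrn1 (multimerin 1) at 3.84 against 274 CPM. Prss23 was at 84.5 CPM in the Vwf-negative cells that met the other limits, a log2 ratio of -0.06, a difference under 2-fold. Of the Weibel-Palade body and exocytosis list, 4 of 18 were higher and 1 lower, with a median of 0.28. Besides Selp, Edn1 (endothelin 1) was higher, at 451 CPM (415 to 489) against 121 CPM, and Rab27a, a GTPase of these granules, at 26.1 against 2.83 CPM, while Angpt2 (angiopoietin 2) was lower, at 59.2 against 209 CPM.

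Sinusoidal genes were also higher in the members than in Vwf-negative sph/sph cells. Of the list for liver sinusoidal endothelial cells (LSEC), 13 of 18 were at least 2-fold higher and 2 lower, with a median log2 ratio of 1.67. Ehd3 had a lowest value of 0, a median of 2 and a highest of 32 UMIs, was at 1160.0 CPM (1102 to 1220.1) against 96.4 CPM and was detected in 62.7% of members and 12.2% of Vwf-negative cells. Clec4g was at 271 against 38.2 CPM, with a median of 0 and a highest of 60 UMIs, and Stab2 at 113 against 33.1 CPM. Bmp2, a bone morphogenetic protein of sinusoidal endothelium, was at 201 against 27.8 CPM, Oit3 at 117 against 14.4 CPM and Gpr182, a scavenger receptor for chemokines, at 324 against 49.6 CPM. The lowest ratio of the list was that of Wnt2, a Wnt gene, at -2.18 on the log2 scale. Stab1, the paralog of Stab2, was at 389 against 588 CPM, a difference under 2-fold. Fcgr2b, an Fc receptor of these cells, had 0 UMIs in the members, which allows up to 2.31 CPM. Fcgr2b was not a measured gene in this comparison, so it is not counted among the 2 lower genes.

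Of 24 measured capillary genes 8 were at least 2-fold lower, 2 higher and 9 within 1.5-fold, with a median of -0.64. Car4 (a carbonic anhydrase of capillaries) was 23.3-fold (6.43 to 192) lower, with 2 UMIs in the members. Lpl (lipoprotein lipase) was at 53.8 against 443 CPM, Rgcc at 67.6 against 449 CPM and Aplnr, the apelin receptor, at 46.9 against 205 CPM. Plvap and Ly6a were the 2 higher ones, Ly6a at 7835 against 2038 CPM. Of 16 measured arterial genes outside the rule 6 were higher and 0 lower, with a median of 0.53, led by Fbln5, then Vegfc (3.23), Gja4 (connexin 37, 2.56) and the kinase Bmx (1.92). Within the rule, Gja5 was detected in 26.9% of members, at up to 2 UMIs, and in 0.816% of Vwf-negative cells. Of 13 central-vein genes 5 were higher and 2 lower, with a median of 0.65. The higher ones included Wnt9b (51.5 against 9.7 CPM) and Ptgs1, cyclooxygenase 1 (108 against 21.9 CPM). Wnt2, the other Wnt gene of the list, went the other way and had its lowest ratio (-2.18 on the log2 scale). Kit, a receptor of central-vein endothelium, was at 36.1 CPM (26.5 to 48) against 56.7 CPM.

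Genes for vessel tone were mostly higher. Of 16 measured vasoactive genes 9 were higher and 1 lower, with a median of 1.08. Hpgd, which degrades prostaglandins, was at 70 against 3.69 CPM, and Ace, angiotensin-converting enzyme, at 113 against 9.42 CPM. Ednrb, the endothelin B receptor, was at 969 CPM (917 to 1024) against 354 CPM, and the shear-responsive factor Klf2 at 1793 CPM (1721 to 1868) against 791 CPM. Of 23 TGF-beta and BMP genes 7 were higher and 0 lower, with a median of 0.78, led by Bmper (4.28), Bmp2 (2.81), Tgfb2 (2.26) and Ctgf (1.86). Of 17 VEGF and angiopoietin genes 2 were higher and 7 lower, with a median of -0.53: Vegfc was at 3.23, Aplnr at -2.1 and Apln (apelin) at -1.89 on the log2 scale.

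Of 44 measured endothelial transcription factors 9 were higher and 7 lower. Meis2, a homeodomain factor, was at 604 CPM (563 to 648) against 129.8 CPM, Meox1 at 45.4 against 229 CPM and Tcf15 at 63 against 267 CPM. Gata6 was at 12.3 against 33.4 CPM. Of 20 chemokine and cytokine genes 4 were higher and 6 lower, the lower ones led by Ccl21a and Ccl7 (-4.45). Of 14 leukocyte adhesion genes 3 were higher and 0 lower: Jam2, a junctional adhesion molecule (527 against 68.7 CPM), Selp and Sele, E-selectin (40 against 5.65 CPM). Icam1 was at 163 against 169 CPM and Vcam1 at 470.5 against 283 CPM. Cldn5, the tight junction claudin of endothelium, was 5.69-fold (5.06 to 6.42) lower, at 214 against 1219.7 CPM.

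Antigen presentation and interferon genes were shared with the rest of the library. Of 7 measured MHC class II genes and of 16 class I genes, 0 were at least 2-fold apart in either direction. Cd74, the invariant chain, was at 2608 CPM (2521 to 2698) against 2628 CPM (2615 to 2642). Of 30 interferon response genes 0 were higher and 2 lower, Ifi27l2a (-2.42) and Ubd (-1.99). Against the Vwf-negative cells that met the other limits Ifi27l2a was at -0.06, with 36.1 CPM in the members and 37.8 in those cells. Cxcl9, an interferon-induced chemokine, was lower, at 977 CPM (924 to 1032) against 2848 CPM. Gimap5 was at 86.1 CPM (70.9 to 104) against 108 CPM (105 to 111), and 0 of 6 Gimap genes were 2-fold apart. A missense allele need not change transcript counts, so this level does not check the genotype label.

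Several other groups had medians near that of all genes. Of 16 hypoxia and glycolysis genes 0 were 2-fold apart, and of 20 immediate early and stress genes 1 was higher and 0 lower (median -0.07). Among 12 Notch genes 2 were higher and 0 lower, and among 21 axon guidance genes 3 were higher and 4 lower. Ntn4, a netrin, led the latter at 83 against 7.86 CPM. Of 18 pan-endothelial genes 3 were higher and 1, Cldn5, lower (median 0.18), with Ptprb at 1276 against 457 CPM, and Tek, the angiopoietin receptor TIE2, at 201 against 92.1 CPM. Proliferation genes outside the rule were lower in 3 of 9 and higher in 0 (median -0.77), a group the rule itself limits through 4 related genes.

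The lymphatic genes depended in size of difference on the choice of comparison cells. All 7 measured lymphatic genes were at least 2-fold lower, with a median of -4.93. Prox1, the transcription factor known for lymphatic identity, was at 2.31 CPM (0.476 to 6.74) in the members and 113 CPM in Vwf-negative cells, Mmrn1 at 3.84 and 274, Ccl21a (a lymphatic chemokine whose near-identical copies may share reads) at 2.31 and 209.5, and Nts (neurotensin) at 43.8 and 1368. In the 8333 Vwf-negative cells that met the other limits, Lyve1 and cell division among them, these genes were at 17, 27.1, 22.8 and 355 CPM. H19, an imprinted non-coding RNA, was at 2.31 CPM in the members, 285 in all Vwf-negative cells and 23.1 in those that met the limits. Abi3bp, Nrcam, Tbx1, Ube2c, Gap43, Slc45a3 and Scn3a made up the 12 lowest.

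Markers of other cell types were counted in the members. For megakaryocytes and platelets, which also carry Vwf, 7 of 12 listed genes had a UMI and the list summed to 128 CPM, against 121 in Vwf-negative cells and 84.9 in the sph/+ cells. Pf4, the platelet chemokine, was at 3.07 CPM, Itga2b at 14.6 CPM and Ppbp at 0.769 CPM, and most of the sum was Itgb3 (99.9 CPM). All 20 hepatocyte genes had a UMI, summing to 667 CPM against 761 and 541 in the same 2 sets. For stellate cells and fibroblasts 5 of 16 genes had a UMI and summed to 110 CPM against 412 and 316, and for macrophages 7 of 16 summed to 23.1 CPM against 48.9 and 159. Only 1 of 19 lymphocyte genes had a UMI. The cholangiocyte list summed to 467 CPM, nearly all of it Clu, with Krt19 at 5.38 CPM and Epcam at 0 CPM. Haemoglobin genes reached 37.1% of the UMIs of a member, and 5 of 5 measured erythroid genes were higher. The list summed to 12218 CPM in members with 5 to 9 Vwf UMIs and to 34.4 and 16.1 CPM in those with 10 to 19 and 20 to 49, and the median log2 ratio of 1.51 turned to -6.37 at 10 or more Vwf UMIs.

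**Figure D3:**
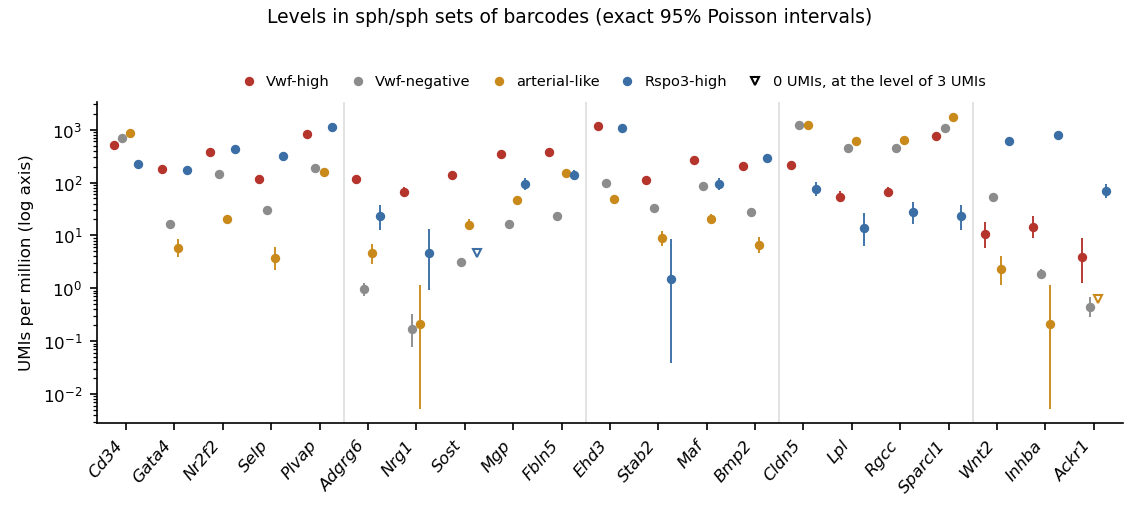
Summed level (CPM, log axis, exact 95% Poisson intervals) of 21 genes in 4 sets of sph/sph barcodes: Vwf-high, Vwf-negative, arterial-like and Vwf-high with Rspo3. Adgrg6, Nrg1 and Mgp are higher in the Vwf-high cells than in Vwf-negative ones, Cd34 and Cldn5 are lower, and Wnt2, Inhba and Ackr1 stand out in the Rspo3-high set.

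The arterial-like comparison set was 964 sph/sph endothelial barcodes, with a median of 4475.5 UMIs. They held at least 3 summed UMIs of Sema3g, Hey1 and Gja5 and at most 4 of Vwf. Of these, 324 fell in cluster 5, which also held 47 members, and 44 in cluster 11. Clusters 8 and 3, led by capillary genes such as Lpl and Car4, held 135 and 100. Cluster 2, led by Pgf and Angptl4, held 112, and the cluster led by Alb held 67. The ratios are therefore not those of veins against arteries alone. Among 7115 measured genes, 5.28% were 2-fold or more above that set in the Vwf-high cells and 4.15% as far below. Of 17 LSEC genes 15 were higher and 0 lower (median 3.54). Gata4 was at 178 CPM (156 to 203) against 5.85 CPM (3.89 to 8.45), Bmp2 at 201 against 6.68 CPM and Oit3 at 117 against 3.55 CPM. Of 21 venous genes 13 were higher and 3 lower (median 1.17): Nr2f2 was at 372 against 20 CPM and Selp at 116 against 3.76 CPM. Of 12 central-vein genes 8 were higher and 1 lower (median 1.98), and of 21 large-vessel genes 12 were higher and 1 lower (median 1.18). Of 24 capillary genes 14 were lower and 2 higher (median -1.18). Of markers of other cell types, 6 of 16 hepatocyte genes were lower and 0 higher (median -0.92). All 5 measured erythroid genes were higher, their list at 7157 against 403 CPM. A setting left out mixed barcodes, those with over 5% of UMIs from markers of other cell types. Apart from that, the part of these markers in the ratios was not tested.

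The highest ratios against the arterial-like cells were those of Nrg1, Cyp1a1 (a cytochrome P450 induced through the aryl hydrocarbon receptor), Sfrp1, Cnmd, Serpinb9b and Cdh4. Nrg1 had 1 UMI in the arterial-like set, a ratio of 320.3-fold (56 to 12793), and Cyp1a1 had 0, at least 82.2-fold higher against 3 UMIs over that set. The lowest were those of Lpl (53.8 against 608 CPM), Kcna5, Pgf, Ccl7, Aqp7 (a glycerol channel) and Car4. The 278 Vwf-high barcodes that missed only the arterial limit were nearer to the members in part. Gata4 was at 143 CPM (126 to 162) and Nr2f2 at 288 CPM (263 to 314) in them, against 178 and 372 CPM in the members and 5.85 and 20 in the arterial-like set. Their Vwf had a lowest value of 5, a median of 14 and a highest of 63 UMIs, above the members' median of 8. Adgrg6 was at 279 CPM there and Mgp at 412 CPM, against 117 and 339 in the members.

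The other Vwf-high set, 95 barcodes with over 2 Rspo3 UMIs and all other limits met, held a median of 5886 UMIs and 9 Vwf UMIs. Among 7222 measured genes, 8.0% were 2-fold or more above that set in the members and 6.16% as far below. Of 13 central-vein genes outside the rule 0 were higher and 8 lower (median -1.4). Wnt2 was at 10.8 CPM (5.88 to 18.1) against 609.9 CPM (552 to 673), and Wnt9b at 51.5 against 587 CPM, both Wnt ligands of the central vein region. Inhba, the activin A subunit, was at 14.6 against 791 CPM and Thbd at 607 against 1352 CPM. Gata4 was at 178 CPM (156 to 203) against 173 CPM (143 to 208), and Nr2f2 was at 372 against 423 CPM. Selp and Ackr1 were lower in the members, at 116 against 316 and 3.84 against 70 CPM. Of 23 venous genes 4 were higher in the members and 7 lower (median -0.64). Of 18 LSEC genes 6 were higher and 1 lower (0.14), and of 17 vasoactive genes 3 were higher and 4 lower (-0.39). Of 25 TGF-beta and BMP genes 3 were higher and 5 lower (-0.1). The members were thus not above the Rspo3-high set in the venous, vasoactive or TGF-beta and BMP medians.

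In the other direction, 12 of 16 arterial genes were higher in the members and 0 lower (median 1.71), 14 of 23 capillary genes higher and 1 lower (1.2), and 10 of 15 basement membrane genes higher and 0 lower (1.4). Sost was at 137 CPM (117 to 158) in the members and had 0 UMIs in the Rspo3-high cells, at least 30-fold higher against 3 UMIs over that set. Igfbp3, Nepn, Mal, Cyp1a1 and Sfrp1 followed, and the lowest were Zfp618, Col6a3, Inhba, Wnt2, Ajap1 and Npy (neuropeptide Y), which had 0 UMIs in the members and was at least 35.6-fold lower. Adgrg6 was at 117 against 22.8 CPM and Plat at 241 against 10.6 CPM. Of 16 haemostasis genes 1 was higher and 8 lower (median -0.98), among the lower ones Procr (79.9 against 315 CPM). Of 14 hepatocyte genes 10 were higher and 0 lower (median 1.86). Apart from the setting without mixed barcodes, their part in the other ratios was not tested.

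Between the libraries, the 249 sph/sph members and the 108 sph/+ cells that met the same rule differed at more genes. Among 7508 measured genes, 9.86% had a level in sph/sph 2-fold or more above that in sph/+ and 9.55% one as far below. Both shares were above those of the 3 comparisons within sph/sph. The sph/+ set held 636301 UMIs in all, against 53075894 for Vwf-negative, 4788566 for arterial-like and 657432 for Rspo3-high cells. The part of set size in these shares was not tested. All 7 measured MHC class II genes were higher, at a median of 4.98 on the log2 scale, or 4.82 with the gene at 0 in sph/+ set to its bound. Cd74 was at 2608 CPM (2521 to 2698) in sph/sph and 81.7 CPM (61 to 107) in sph/+, and was detected in 87.6% and 6.48% of cells. The class II transactivator Ciita was at 82.3 CPM against 0 UMIs, at least 17.4-fold higher against 3 UMIs over the sph/+ set, and H2-Ab1, a class II beta chain, was at 839 against 11 CPM. Of 30 interferon response genes 20 were higher and 0 lower (median 1.67), with Ubd, a ubiquitin-like modifier, at least 58.9-fold higher over 0 UMIs in sph/+ and the GTPase Gbp5 at 3.64 on the log2 scale. Of 16 class I genes 8 were higher and 0 lower (median 1.06), although H2-Q6 and H2-Q7 are near-identical copies whose reads may be split. Cxcl9 had a median of 0 and a highest of 134 UMIs in sph/sph and was at 977 against 25.1 CPM.

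The same difference was present in Vwf-negative cells. Cd74 was at 2628 CPM in Vwf-negative sph/sph cells and 11.1 CPM in Vwf-negative sph/+ cells, and Cxcl9 at 2848 and 106 CPM. The direction for these genes was thus the same in cells without a Vwf UMI.

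Sinusoidal genes went the other way, with 0 of 21 LSEC genes higher in sph/sph, 17 lower and a median of -1.83. Fcgr2b was at 574 CPM (516 to 636) in sph/+ and had 0 UMIs in sph/sph, at least 249-fold lower against 3 UMIs over the set. Clec4g was at 271 in sph/sph against 1216 CPM in sph/+, Mrc1, the mannose receptor, at 36.1 against 602 CPM, Dnase1l3 at 40 against 855 CPM, and Maf at 268 against 956 CPM. Gata4 stood apart from these, at 178 CPM (156 to 203) against 173 CPM (142 to 208), with detection in 42.2% and 52.8% of cells. Ehd3 was at 1160.0 against 1581 CPM. The sph/+ cells that met the rule thus carried more sinusoidal transcripts than the sph/sph members, with nearly the same level of Gata4.

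Venous genes had no common direction between the libraries, with 6 of 23 higher in sph/sph, 4 lower and a median of 0.04. Nr2f2 was lower in sph/sph, at 372 CPM (339.7 to 407) against 935 CPM (861 to 1013), and Selp was higher, at 116 CPM (98.3 to 136) against 36.1 CPM (22.9 to 54.2). Adgrg6 and Nrg1, the highest genes against Vwf-negative cells, were lower in sph/sph than in sph/+, at 117 against 702 and 66.9 against 556 CPM. Mgp was at 339 against 341 CPM, Fbln5 at 384 against 59.7 CPM and Sost at 137 against 15.7 CPM. Vwf itself was at 2265 CPM (2184 to 2349) against 1329.6 CPM (1241 to 1422), but the rule used it. Gimap5 was at 86.1 CPM (70.9 to 104) against 72.3 CPM (52.9 to 96.4), and 0 of 6 Gimap genes were 2-fold apart.

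Basement membrane, capillary, hypoxia and haemostasis genes were more often higher in sph/sph. Of 15 basement membrane genes 11 were higher and 0 lower, with a median of 1.77. Sparcl1 had 980 UMIs in sph/sph and 1 in sph/+, a ratio of 479-fold (85.8 to 18953). As given above, Sparcl1 was far higher in the members of cluster 5 than in those of cluster 11, so the ratio is not that of every member. Col18a1 (a collagen of vascular basement membranes) had a ratio of 89-fold (24.5 to 738) and Lamb1, a laminin chain, of 35.5-fold (12 to 174). Of 23 capillary genes 11 were higher and 2 lower (median 0.55), with Rgcc at 67.6 CPM against 0 UMIs in sph/+, at least 14.3-fold higher against 3 UMIs over the set, and Apln at least 21.7-fold higher on the same floor. Cd34 was at 507 CPM (469 to 548) against 217 CPM (182 to 256). Of 16 hypoxia and glycolysis genes 6 were higher and 0 lower (median 0.89), among them Vegfa, vascular endothelial growth factor A (3.17). Of 14 haemostasis genes 7 were higher and 1 lower (0.78), with F8 the lower one (131 against 651 CPM). Cldn5 was lower, at 214 against 1155 CPM, and Ptprb, the endothelial receptor phosphatase VE-PTP, at 1276 against 3462 CPM.

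The highest ratios over sph/+ were those of Sprr2b, Sparcl1, Ubd, Tnfrsf9, Apln, Sema7a (a membrane semaphorin), Ciita, Chn2, H2-Ab1 and Rgcc. Sprr2b had 643 UMIs in sph/sph and 0 in sph/+ (at least 105-fold), Tnfrsf9 346 and 0 (at least 56.4-fold). Sprr2b was unevenly spread, with a median of 0 and a highest of 142 UMIs in the members. The lowest were those of Fcgr2b, Chp2, Tm4sf4, Aass (an enzyme of lysine breakdown), Iqgap2, Slc39a8 (a zinc transporter), Abat (an enzyme of GABA breakdown), Tmem132e, Ces1d and Fgd4. Aass had 0 UMIs in sph/sph and was at least 21.8-fold lower. Markers of macrophages were lower in 3 of 3 measured and of cholangiocytes in 5 of 6, summing in sph/+ to 159 CPM for the macrophage list against 23.1 in sph/sph. All 5 measured erythroid genes were higher, with the list at 7157 CPM in sph/sph and 14.1 in sph/+. Of 17 hepatocyte genes 7 were higher and 1 lower. Apart from the setting without mixed barcodes, the part of these markers in the ratios was not tested.

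**Figure D4:**
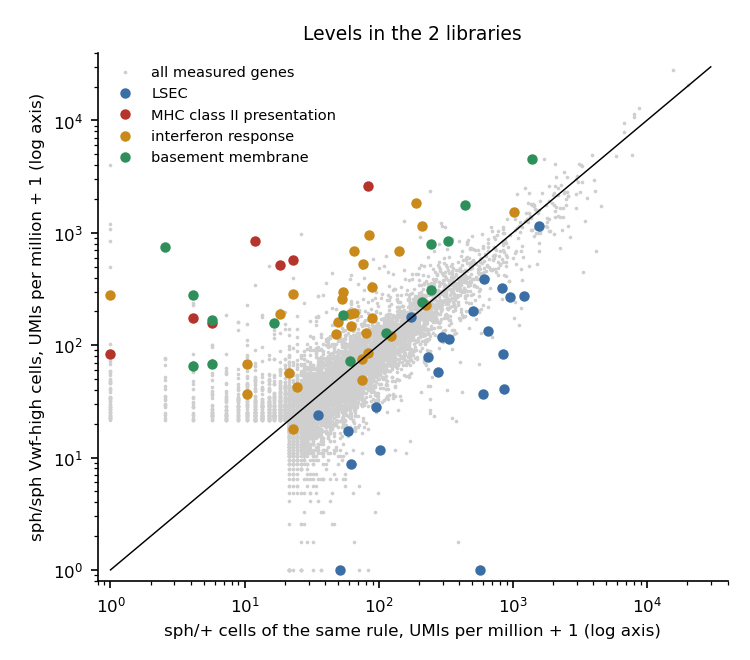
Summed level of each measured gene (CPM plus 1, log axes) in the sph/+ cells that met the rule (horizontal) and the sph/sph Vwf-high cells (vertical). LSEC, MHC class II, interferon and basement membrane genes are coloured, and the line of equal levels is drawn. The 7 class II genes lie at least 2-fold above that line and 17 of 21 LSEC genes at least 2-fold below it.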

How the data were processed

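Liver endothelial cells of 1 sph/+ and 1 sph/sph mouse were profiled as 1 droplet library each. The deposited values are raw UMI counts per gene and barcode, with no normalization by the authors, over 31053 genes. The submitters' processing notes name Cell Ranger 3.0 and the genome build mm10 (GRCm38). Per the file headers, the matrices were written by software version 3.1.0. The annotation release is not given in the sources used here, and gene positions come from GENCODE vM21. The sph/sph library held 16386 barcodes and 68983780 UMIs, with a median of 3484 UMIs, and the sph/+ library 13136 barcodes and 64460283 UMIs, with a median of 4446. The deposited barcodes are those kept by the submitters.

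Raw UMIs were summed over the barcodes of a set and divided by the total UMIs of the set, giving CPM. Genes at 20 CPM or more in either set were measured, 1 CPM was added to both levels before the log2 ratio, and genes at least 2-fold apart were counted, leaving out the 12 genes of the rule. With 1 library per genotype no test was possible: cells are not replicates, and no p-value is given. Levels have exact Poisson intervals, shares exact Clopper-Pearson intervals and ratios an exact interval from the binomial split of both counts, all at 95%. A gene without a UMI was given a floor of 3 UMIs over the set. For shares at equal depth, each barcode was thinned to 2000 UMIs.

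The sph/sph library was clustered without the genes of the rule (2000 variable genes, 30 principal components, 15 neighbours, Leiden resolution 1). Scrublet (scanpy 1.11.5) gave doublet scores, with 0.8% expected for every 1000 barcodes, and marked barcodes were kept. Other tools were Python 3.11.15, numpy 2.4.6, scipy 1.17.1, scikit-learn 1.9.0, igraph 0.11.9, leidenalg 0.10.2, pandas 2.3.3 and matplotlib 3.10.9. The calculations were tested on simulated data. The members, the 38 gene lists (629 of 633 listed genes found) and the comparisons were chosen with earlier results of these data known, and lists overlap. Named genes were the 20 highest and 12 lowest ratios against Vwf-negative cells, the 10 highest and 10 lowest against sph/+, the 6 highest and 6 lowest in the other comparisons, up to 4 with the largest ratios in each list, the 12 most variable among members with a mean of at least 0.2 UMIs, and 21 genes of endothelial types with the genes of the rule whatever their values. The extremes left out genes of the rule, markers of other cell types, unnamed and sex-linked genes, and genes of mitochondria, ribosomes, haemoglobin and immunoglobulins. Further genes named for a cluster, a Vwf range or a role were chosen after their values were seen. Alternatives were the CPM added, the minimum level, equal weight of cells, thinning, centring on the median, removal of marked doublets or mixed barcodes, a Vwf limit of 3 or 10 UMIs and a comparison set that met the other limits. Leaving out the cluster led by Sprr2b and Clec4g was added after seeing the data.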

Additional observations from a re-analysis of the deposited data

How the results depend on the processing

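The calls describe 1 mouse of each genotype, so neither mouse, sort nor library can be told apart from genotype, and depth limits what single cells show: most named genes had a median of 0 UMIs among members. No paired analysis was possible because each genotype has 1 library. Of 1530 values of list medians under an alternative (127 medians, of lists with at least 3 measured genes), 1469 moved little, 58 moved by more and 3, of medians 2-fold or more apart, turned sign. Counting medians near 0 as well, 100 values of 39 medians had the other sign. Of 6970 values for single genes (592 ratios), 6142 moved little, 821 moved by more and 7, of genes 2-fold or more apart, turned sign, and with ratios near 0 included 62 values of 32 ratios had the other sign. The cause of these changes was not tested, apart from the settings that test more or fewer genes by construction.

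The number of genes at least 2-fold apart followed the minimum level. Against Vwf-negative cells it was 597 higher and 627 lower from 5 CPM, 202 and 138 from 50 CPM, 901 and 1133 without a minimum, and 533 and 551 at 10 or more Vwf UMIs. Against sph/+ it was 1367 and 1224 from 5 CPM, 380 and 369 from 50 CPM, 2191 and 2024 without a minimum, 1339 and 1279 at 10 or more Vwf UMIs, 1158 higher after thinning and 425 lower with 10 CPM added. Against arterial-like cells it was 741 and 561 from 5 CPM, 204 and 171 from 50 CPM, 1195 and 997 without a minimum, 582 and 584 at 10 or more Vwf UMIs, 179 lower at 3 or more and 188 lower with 10 CPM added. Against Rspo3-high cells it was 1185 and 849 from 5 CPM, 258 and 228 from 50 CPM, 2013 and 1401 without a minimum, 995 and 844 after thinning, 360 and 281 with 10 CPM added, and 699 lower at 10 or more Vwf UMIs. The share of sph/sph endothelial barcodes that met the rule was 1.64% after thinning, 3.04% with at least 3 Vwf UMIs and 0.728% with at least 10.

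Erythroid genes turned sign at 10 or more Vwf UMIs. Against Vwf-negative cells the list median was then -6.37, with Hbb-bt at -6.33, Hba-a2 at -6.70 and Hba-a1 at -6.07, and against arterial-like cells the median was -3.83, with Hba-a2 at -3.83, Hba-a1 at -3.26 and Hbb-bs at -4.03. Hbb-bs was at -0.86 against arterial-like cells without mixed barcodes. These haemoglobin genes are near-identical pairs whose reads may be split. The stellate cell and fibroblast median against Vwf-negative cells turned to 0.91 when the comparison set met every other limit.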

Other observations

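Haemoglobin and other erythroid transcripts differed in summed level between the libraries and were unevenly spread over the members. The erythroid list summed to 7157 CPM in the members, 14034 CPM in those with 5 or 6 Vwf UMIs and 12085 CPM in the barcodes just outside, with 3 or 4. It summed to 2489.8 CPM in Vwf-negative sph/sph cells, 1586 CPM in the Vwf-high barcodes that missed only the arterial limit and 13.7 CPM in the Rspo3-high set. In sph/+ it summed to 14.1 CPM in the cells that met the rule and 26.6 CPM in Vwf-negative cells. The highest share of a single member's UMIs was 37.1%, and the median member had none. Of the members, 4 fell in the cluster led by haemoglobin genes. Another count found 4 with over 5% of UMIs from markers of other cell types, all with 5 to 9 Vwf UMIs. The sums can thus rest on few barcodes and are not a trend with Vwf. In the members of cluster 11 the sum was 10.6 CPM and in those of cluster 19 it was 19.3 CPM.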
